A study of Mus musculus with 6 samples.

Results

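The genes described here make cholesterol, move it within the cell or control its production through SREBP2. They comprise 31 genes picked by symbol for their known roles, and all 31 were present among the 17460 genes of the deposited table. The rule uses no measured value, but the genes were chosen with earlier results of these data known. By role they fell into 8 genes of the mevalonate stage, 3 of the squalene stage, 9 that turn lanosterol into cholesterol, 6 for SREBP2 and its processing, and 5 for sterol transport and esterification. The first 3 groups make up the 20 genes called sterol synthesis enzymes here. They include Ggps1, which supplies the lipid anchor of small GTPases and does not lead to cholesterol.

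RNA was sequenced from 3 control and 3 Blnc1 LKO mouse livers, at 65384969 to 89350181 reads on the listed genes per liver. All came from C57BL/6 mice of 9 months that had eaten a NASH diet, rich in trans fat, fructose and cholesterol, for 24 weeks. Both groups were described in the study as Cas9 transgenic mice that received adenovirus through the tail vein, carrying GFP in control and a pair of guide RNAs against the long noncoding RNA Blnc1 in Blnc1 LKO mice. Adenovirus enters non-parenchymal liver cells poorly, so deletion was directed mainly at hepatocytes. How far Blnc1 fell in these 6 livers was not analysed here. Values are normalized counts, the reads on a gene scaled by 1 factor per liver, and a log2 fold change is Blnc1 LKO over control on the scale of log2(normalized count + 1), tested over all genes with limma, a linear model that shares information on the spread between genes.

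Hepatocytes build cholesterol from acetyl-CoA through mevalonate, squalene and lanosterol. When sterols in the endoplasmic reticulum are scarce, SCAP escorts SREBP2 to the Golgi, where proteases release its active part to switch on the genes of the pathway. When sterols are plentiful, INSIG proteins hold SCAP back, and surplus cholesterol is stored as esters.

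SREBP2 acts at sterol regulatory elements, often beside binding sites for NF-Y, which reads the CCAAT box. The promoters of Hmgcs1, Srebf2 and Insig1 are shown because they belong to an early enzyme of the pathway, the regulator itself and its retention protein, whose expression is compared below. The sequences are from RefSeq (GRCm38.p6), run 5′ to 3′ on the + strand, and end before the annotated start of the gene. Capitals mark TCACNCCA, the core of a sterol regulatory element, CCAAT (read as ATTGG on the other strand) and CACGTG, the E-box. Hmgcs1 is at chr13:119690101-119690350, Srebf2 at chr15:82147019-82147180 and Insig1 at chr5:28071162-28071362.
Hmgcs1: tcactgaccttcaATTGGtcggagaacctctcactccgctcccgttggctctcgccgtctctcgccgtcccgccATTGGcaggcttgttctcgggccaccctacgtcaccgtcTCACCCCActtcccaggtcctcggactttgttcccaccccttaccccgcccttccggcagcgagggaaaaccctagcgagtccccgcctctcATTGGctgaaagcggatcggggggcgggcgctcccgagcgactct
Srebf2: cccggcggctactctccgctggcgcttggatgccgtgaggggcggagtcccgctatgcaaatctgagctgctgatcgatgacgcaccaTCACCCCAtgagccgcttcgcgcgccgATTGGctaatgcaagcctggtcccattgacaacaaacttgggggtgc
Insig1: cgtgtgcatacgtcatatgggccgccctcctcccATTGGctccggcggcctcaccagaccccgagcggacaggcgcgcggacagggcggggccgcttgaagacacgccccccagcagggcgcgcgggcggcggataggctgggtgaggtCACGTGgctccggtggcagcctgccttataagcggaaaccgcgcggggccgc

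The Hmgcs1 promoter held 1 element core, 137 bases before the RefSeq start, among CCAAT boxes at 237, 176 and 45 bases. In Srebf2 the core lay 162 bases and a CCAAT box 135 bases before the RefSeq start. Insig1 held an E-box at 101 bases and a CCAAT box at 216 bases before its RefSeq start. For Srebf2 and Insig1 the printed sequence ends before the GENCODE start, which lies upstream of the RefSeq start. The distances given are therefore longer than those to the end of the printed sequence. Of the 31 genes, 25 had a promoter in the RefSeq table, some with more than 1 start, which gave 31 promoters of 250 bases before to 50 bases after the start (without one were Fdps, Fdft1, Sqle, Npc1, Stard4 and Soat2). On either strand, the core was found in 3 of these 31 promoters, those of Hmgcs1, Msmo1 and Srebf2, or 9.68% against 4.36% of all 32851 promoters. CCAAT was found in 67.7% against 37.4%, and CACGTG in 19.4% against 7.15%. These are matches of letters and not measured binding sites. The 3 genes with the core had log2 fold changes of -0.06 (Hmgcs1), 0.15 (Msmo1) and -0.03 (Srebf2) between the groups, described with their errors below.

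Across all 6 livers the pathway covered a wide range of transcript levels when expressed per length of exon. In normalized counts per kb of exon (mean of 6 livers), Sc5d, the sterol C5-desaturase, stood highest at 8097, followed by Fdps, farnesyl diphosphate synthase, at 7173 and Ebp, the sterol isomerase, at 6556. Insig2 (5152), Insig1 (4760) and Hmgcs1 (4210) came next. The lowest levels belonged to Ggps1, geranylgeranyl diphosphate synthase (139), Mbtps2, the site-2 protease (133), Soat1 (132) and Idi1, isopentenyl diphosphate isomerase (120). Soat2, the cholesterol esterifying enzyme of hepatocytes, stood at 1851 and so far above Soat1, its relative of macrophages and other cells. Levels of Insig1 and Insig2 overlapped from liver to liver, as did those of Ggps1, Mbtps2, Soat1 and Idi1.

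**Figure D1:**
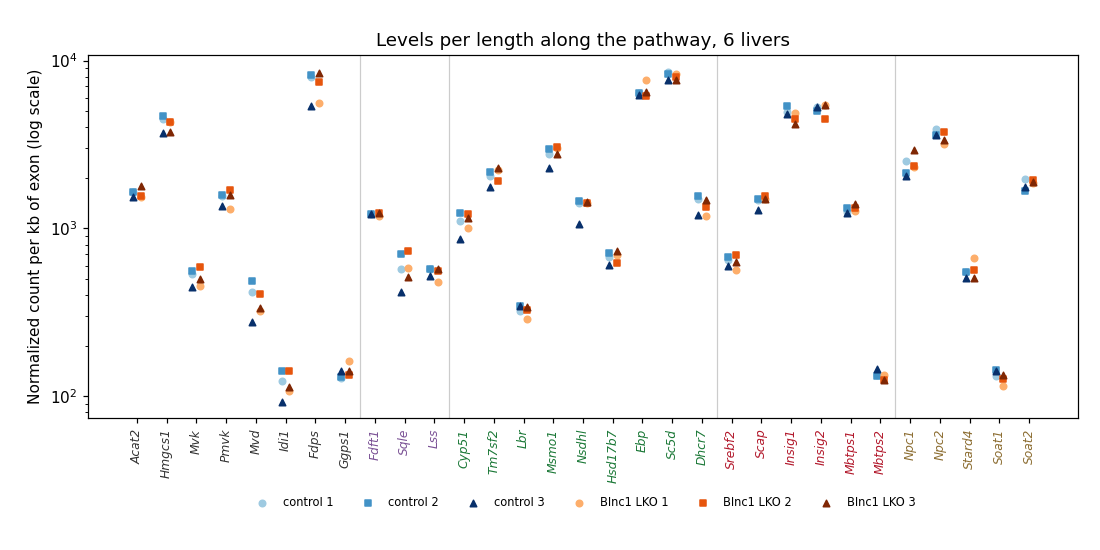
Transcript level of each of the 31 genes in each liver, in normalized counts per kb of exon on a log axis, in the order of the pathway (each point is 1 liver, blue for control and orange for Blnc1 LKO). Means over the 6 livers ran from 120 for Idi1 to 8097 for Sc5d, and the colors of the groups intermingle for every gene.

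Some of these levels rest on exons shared with another gene. In GENCODE M21, 10 of the 31 genes shared exon bases with a neighbor, and 6 shared over 10% of them. Fdps shared 77.4% of its exon bases with Gm43738 on the same strand, Mbtps2 shared 36.1% with Yy2 on the same strand, and Fdft1 shared 20.9% with Ctsb on the opposite strand. Scap (18.6%), Hmgcs1 (16%) and Idi1 (10.7%) overlapped noncoding or unclassified models on the opposite strand. The library kit does not mark strand, and the annotation used for counting is not given in the sources used here. The values of these 6 genes are therefore uncertain in level, and any effect on their fold changes and spread was not tested. The same holds for Acat2, which has a close relative in Acat3.

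The question asked of the 31 genes was whether liver deletion of Blnc1 changed their expression. None passed an adjusted p under 0.05 in limma (0 of 31), a threshold that 1 of the 17297 genes tested passed (0.00578%). Of the 31, 17 had a higher and 14 a lower mean log2 level in Blnc1 LKO livers, and their median log2 fold change was 0.02, against -0.00099 over all genes tested. At an unadjusted p under 0.05, 0 were higher and 0 lower, against 2.94% and 2.74% of all genes. In no gene did the 3 Blnc1 LKO livers all lie above the 3 control livers, which 5.35% of all genes showed, or all below, which 5.28% showed. DESeq2 on the recovered reads also called 0 of 31 (0.481% of all genes), as did the quasi-likelihood test of edgeR (0.0116% of all genes).

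How large a change could have gone unseen is given by the 95% confidence intervals, each for 1 gene without correction for their number. All 31 intervals lay inside a 1.5-fold change in either direction, as did those of 68.1% of all genes tested. Inside a 1.3-fold change lay 26 of the 31 and 16 of the 20 enzymes, against 54.4% of all genes. The intervals of the other 5 genes, Mvd, Idi1, Fdps, Sqle and Npc1, reached beyond 1.3-fold. For these genes the data with 3 livers per group do not limit the change that tightly. The outermost bounds were -0.56 on the log2 scale for Mvd and 0.55 for Sqle. Because the tissue is whole liver, fewer cells of a type and less RNA per cell cannot be told apart in any of these values.

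**Figure D2:**
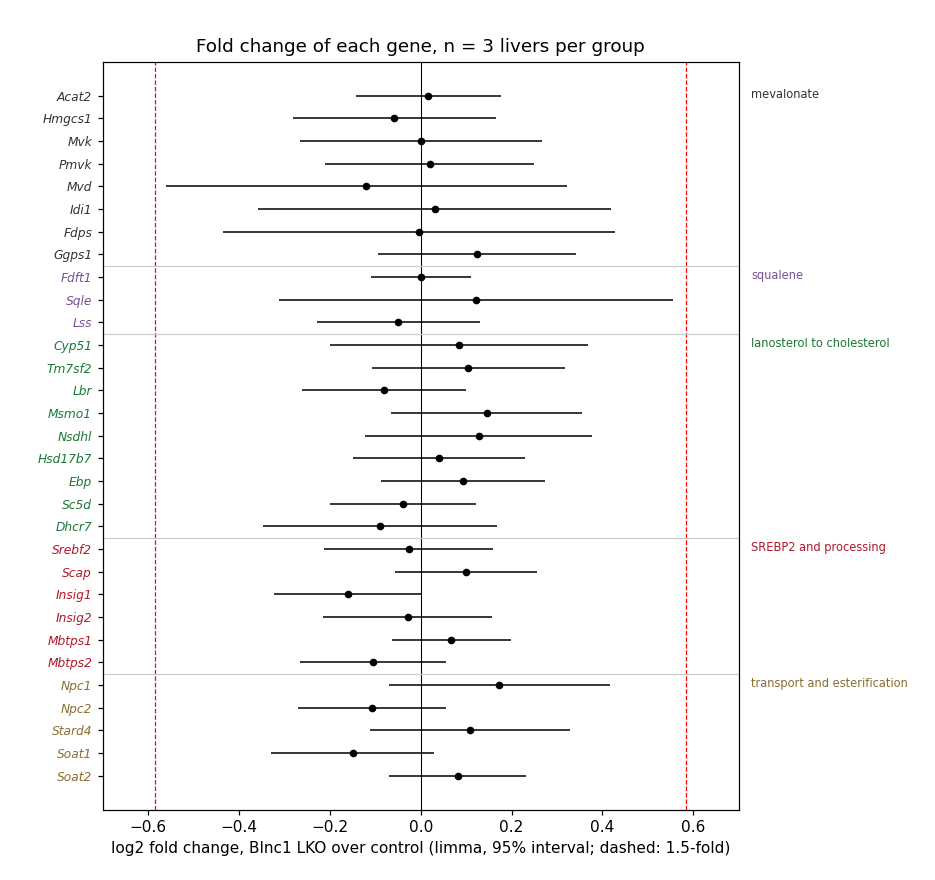
Log2 fold change of each gene in Blnc1 LKO over control livers with its 95% confidence interval from limma (n = 3 livers per group), with dashed lines at a 1.5-fold change in either direction. Estimates ran from -0.16 for Insig1 to 0.17 for Npc1, and every interval lies between the dashed lines and includes 0.

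In the mevalonate stage, 4 of 8 genes were higher and 4 lower, with a median log2 fold change of 0.0084. Hmgcs1, the cytosolic HMG-CoA synthase, had normalized counts of 15669, 16327 and 12924 in control livers and of 15026, 15026 and 12977 in Blnc1 LKO livers. Its lowest values came from 1 liver of each group and the ranges overlapped almost fully. Between the groups it differed by -0.06 on the log2 scale (standard error 0.098), with an adjusted p of 0.984 in limma. Acat2, which joins acetyl-CoA units at the start of the pathway, and the kinases Mvk and Pmvk had log2 fold changes from -0.0002 for Mvk to 0.02 for Pmvk. For Ggps1, which supplies the lipid anchor of small GTPases, the estimate was 0.12 with a standard error of 0.096.

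Mvd, Idi1 and Fdps, which carry mevalonate diphosphate on to farnesyl diphosphate, varied widely between livers. Fdps had 11648, 11969.5 and 7761 normalized counts in control and 8116, 10759 and 12284 in Blnc1 LKO livers. Each group held 1 low liver and 2 high ones, and the group means of 10459 (SD 2343, n = 3) and 10386 (SD 2109, n = 3) were nearly the same. Mvd, the decarboxylase, had 737, 858 and 487 in control and 568, 714 and 592 in Blnc1 LKO livers. Its control livers alone spanned a 1.76-fold range, and the log2 fold change of -0.12 was smaller than its standard error of 0.19.

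The squalene stage commits farnesyl units to sterols. Sqle, squalene epoxidase and a rate-controlling step, had normalized counts of 1586, 1934 and 1147 in control livers and of 1589.9, 2016 and 1412 in Blnc1 LKO livers. The control livers included both the lowest value of all and 1 close to the highest. The log2 fold change was 0.12 with a standard error of 0.19 and a 95% interval from -0.31 to 0.55 (adjusted p = 0.980, limma). Fdft1, squalene synthase, was by contrast the steadiest of the 31 genes, with a mean of 4495 in control (SD 21.5, n = 3) and 4499.9 in Blnc1 LKO livers (SD 113, n = 3). Its log2 fold change was 0.0012 with an interval from -0.11 to 0.11. Lss, which closes the rings to form lanosterol, was at -0.05 (standard error 0.079).

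From lanosterol to cholesterol, 6 of 9 genes were higher and 3 lower, with a median of 0.08 on the log2 scale. Msmo1, the sterol C4-methyl oxidase, had the largest estimate at 0.15 (standard error 0.092, adjusted p = 0.951 in limma). Its mean normalized count was 5469.9 (SD 697, n = 3) in control and 6021 (SD 294, n = 3) in Blnc1 LKO livers, and a single control liver, at 4689, lay below the other 5. Without it the estimate was 0.04. Nsdhl, its partner in removing the C4 methyl groups, showed the same layout, with 2310.3 in 1 control liver and 3058 to 3141 in the other 5 livers. Cyp51, the lanosterol demethylase, Hsd17b7, Ebp and the sterol C14-reductase Tm7sf2 had log2 fold changes between 0.04 and 0.11, each with a 95% interval that included 0. Dhcr7, the last reductase of 1 branch, was at -0.09 (standard error 0.11), Lbr, the lamin B receptor that also has C14-reductase activity, at -0.08 (0.079) and Sc5d at -0.04 (0.070).

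The transcript that encodes SREBP2 did not differ between the groups beyond its spread. The protein and its release at the Golgi were not measured in these data. Srebf2 (chr15:82147181-82205379, + strand, GRCm38) had 3299.6, 3427 and 3039 normalized counts in control and 2881, 3517 and 3208 in Blnc1 LKO livers. The lowest and the highest of the 6 were both Blnc1 LKO livers. The log2 fold change was -0.03 with a 95% interval from -0.21 to 0.16 (adjusted p = 0.993, limma). Scap, the sterol-sensing escort, had 6234, 6348 and 5418 in control and 6331, 6577 and 6331 in Blnc1 LKO livers. All values but 1 lay within a narrow band, and the exception was again the third control liver. On the log2 scale the difference was 0.10 (standard error 0.068), with an adjusted p of 0.959 in limma.

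Insig1, whose transcription is itself under SREBP control in textbook accounts, came nearest to a difference of all 31 genes. Insig1 (chr5:28071363-28078662, + strand, GRCm38) had 13284, 14436 and 12917 normalized counts in control and 13046, 12115 and 11231 in Blnc1 LKO livers. Only 1 Blnc1 LKO liver reached into the control range. The log2 fold change was -0.16 (standard error 0.071) with a 95% interval from -0.32 to 0.0024, and neither the unadjusted p of 0.0528 nor the adjusted p of 0.879 (limma) passed 0.05. Insig1 passed an unadjusted p under 0.05 with edgeR scaled by library size only, and with limma when the third control or the first Blnc1 LKO liver was left out.

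Insig2, the form less dependent on sterols, had 15541, 14780.0 and 15695 normalized counts in control and 15989.8, 13215 and 16069 in Blnc1 LKO livers. A single Blnc1 LKO liver was low, and the other 2 lay above every control liver. The log2 fold change was -0.03 (standard error 0.081). Mbtps1, the site-1 protease, was at 0.07 (standard error 0.058) and Mbtps2, the site-2 protease, at -0.11 (0.070), so the proteases that act in turn on SREBP2 had estimates of opposite sign, both with intervals that included 0. Over the 6 genes of SREBP2 and its processing, 2 were higher and 4 lower, with a median of -0.03.

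The remaining 5 genes handle cholesterol once it is made or taken up. Soat1, which esterifies cholesterol in many cell types, had 1107, 1194 and 1181 normalized counts in control and 957, 1059.8 and 1127 in Blnc1 LKO livers. The groups overlapped only through the lowest control and the highest Blnc1 LKO liver. Its log2 fold change was -0.15 (standard error 0.079) with a 95% interval from -0.33 to 0.03 (adjusted p = 0.920, limma). Soat2 had 4331, 3704 and 3889.9 in control and 4122, 4314 and 4157 in Blnc1 LKO livers. Its control livers held both the highest and the lowest value, and the log2 fold change was 0.08 (standard error 0.066).

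Npc1 and Npc2 together release cholesterol from lysosomes. Npc1, the membrane protein, had the highest estimate of the 31 genes, 0.17 (standard error 0.11, adjusted p = 0.946 in limma), with mean normalized counts of 11683 (SD 1283, n = 3) in control and 13200.0 (SD 1772, n = 3) in Blnc1 LKO livers. A single Blnc1 LKO liver, the third, stood above the rest at 15246, and the estimate was 0.07 without it and 0.26 without the first control liver. The soluble Npc2 lay on the other side, at -0.11 (standard error 0.072), with 12188 (SD 536) and 11332 (SD 979) in the same order. Stard4, a cytosolic sterol carrier, was at 0.11 (standard error 0.096), a value that was 0.0043 without the first and 0.20 without the third Blnc1 LKO liver.

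**Figure D3:**
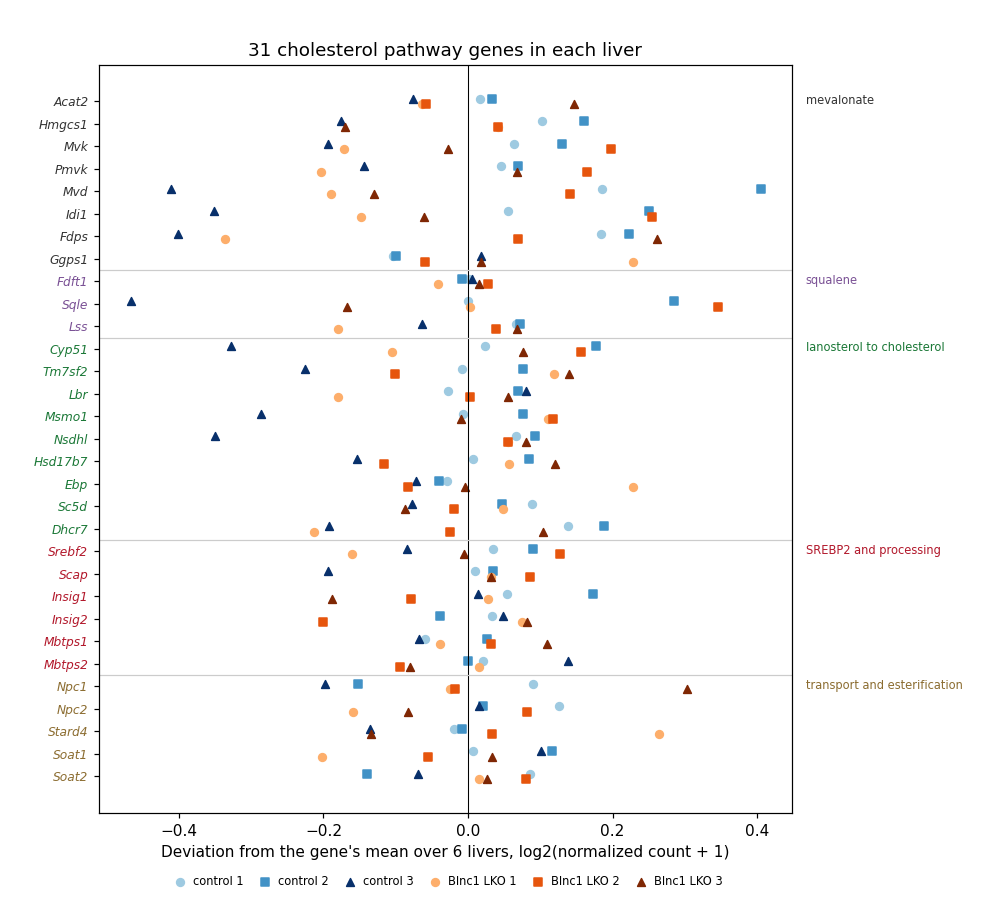
Level of each of the 31 genes in each liver as its deviation from the gene's mean over the 6 livers, on the scale of log2(normalized count + 1). Blue marks are control and orange marks Blnc1 LKO livers, and the dark blue triangles of the third control liver are the lowest mark for 16 of the 31 genes.

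Pairs of genes with related functions were compared by their ratio within each liver, which does not depend on the scaling between livers. Over 4 such pairs the smallest p that an exact two-sided permutation test of 3 against 3 livers can give is 0.1, so none could pass 0.05. The log2 ratio of Srebf1, which encodes SREBP1, to Srebf2 was 4.001, 3.68 and 4.004 in control and 3.56, 3.28 and 3.66 in Blnc1 LKO livers. Every Blnc1 LKO liver lay below every control liver, with a difference of -0.39 (p = 0.1 in the exact permutation test, adjusted p = 0.4 over the 4 pairs). Srebf1 is not among the 31 genes, and its own log2 fold change was -0.42 with a standard error of 0.097, which did not pass the adjustment over all genes (adjusted p = 0.548, limma), beside the -0.03 of Srebf2. The reads of Srebf1 did not separate its isoforms.

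The ratio of Insig1 to Insig2 was lower by 0.13 on the log2 scale in Blnc1 LKO livers (-0.31 ± 0.20 against -0.18 ± 0.13, SD, n = 3 each, p = 0.4 in the exact permutation test). For Soat1 to Soat2 the mean was -1.77 in control (SD 0.17, n = 3) and -2.00 in Blnc1 LKO livers (SD 0.11, n = 3), with an exact permutation p of 0.2. Tm7sf2 and Lbr, the alternative C14-reductases, had a log2 ratio of 1.52 ± 0.18 and 1.70 ± 0.20 (SD, n = 3 each, exact permutation p = 0.4). In these 3 pairs the groups overlapped.

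**Figure D4:**
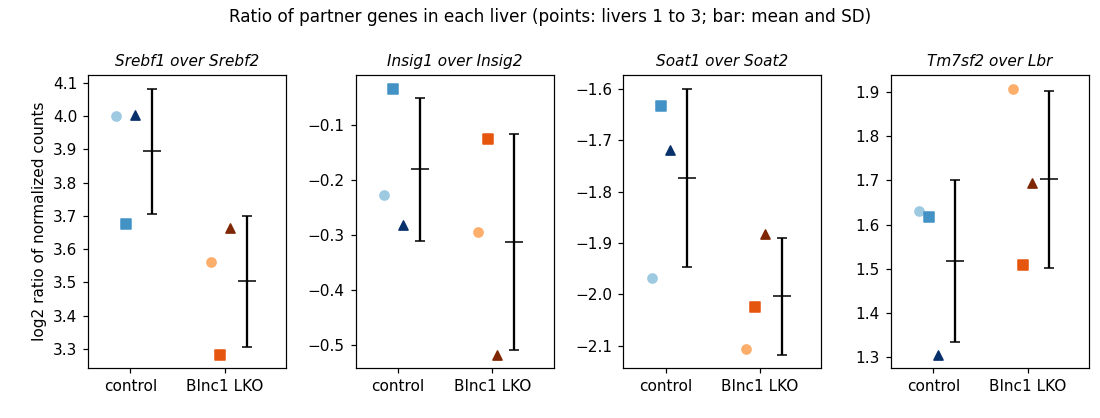
Log2 ratio of normalized counts of 4 gene pairs in each liver (points, 3 control and 3 Blnc1 LKO), with the mean and SD as bars and a separate vertical scale for each pair. The groups separate for Srebf1 over Srebf2 and overlap for the other 3 pairs.

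For 22 of the 31 genes (71.0%) the difference between the group means was smaller than the pooled SD within groups, a share close to the 70.7% of all genes tested. The SD within groups had a median of 0.149 on the log2 scale over the 20 enzymes and of 0.12 over the 31 genes, against 0.134 over all genes tested, which include many of low count, and 0.0888 over the 10435 genes that were at least as abundant as the lowest enzyme. It ran from 0.0263 for Fdft1 to 0.328 for Fdps. Between the lowest and the highest control liver, Mvd spanned 1.76-fold, Sqle 1.69-fold, Fdps 1.54-fold, Idi1 1.52-fold and Cyp51 1.42-fold, while Fdft1 spanned 1.01-fold.

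A single liver recurred at the low end. The third control liver was the lowest of the 6 for 12 of the 20 enzymes (60.0%), where it was the lowest for 16.6% of all genes tested, and it lay below the mean of the 6 livers for 17 of the 20, against 49.1% of all genes. Its median deviation over the enzymes was -0.18 on the log2 scale, while the other livers had medians between -0.05 and 0.08 and the median over all genes in the third control liver was 0.0027. The 12 included Hmgcs1, Mvd, Idi1, Fdps, Sqle, Cyp51, Msmo1 and Nsdhl, which span all 3 stages of synthesis. Lbr was instead highest in this liver, and Fdft1 and Ggps1 lay close to their means. The second control liver was above the mean for 17 of the 20 enzymes.

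This description was made after the values were seen, and the enzymes of 1 liver share its library and its scaling, so no test is given. With TMM scaling 12 enzymes were still lowest in the third control liver, and with library size only 11 were. Without this liver, the median log2 fold change of the enzymes was -0.06 in place of 0.02, and leaving out each of the other livers gave medians from -0.03 (without the second Blnc1 LKO liver) to 0.08 (without the second control liver). The summed hepatocyte markers of the third control liver (5537905 normalized counts) were the highest of the 3 control livers, and its summed macrophage markers (79792) the lowest. Its summed cholangiocyte markers (4255) were the highest of all 6 livers, where the others ran from 2713 to 4024. Its stellate (120920.0) and endothelial sums (26192) were also the highest of all 6, with the first control liver close behind (120302.5 and 26000). The part of these markers in the pattern was not tested.

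**Figure D5:**
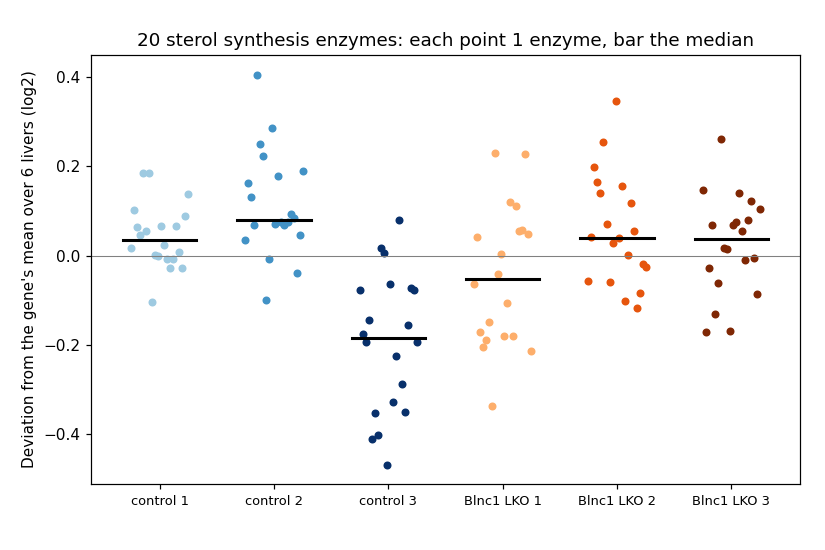
Deviation of each of the 20 sterol synthesis enzymes (points) from its mean over 6 livers, by liver, on the log2 scale, with the median of each liver as a bar. The third control liver has a median of -0.18, and the other 5 livers have medians between -0.05 and 0.08.

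Genes that work beside the 31 were examined in 6 further lists. Of 16 genes of the isoprenoid branches, which make dolichol, ubiquinone and the prenyl groups of proteins, 8 were higher and 8 lower, with a median log2 fold change of 0.0049. Of 10 genes for degradation at the endoplasmic reticulum of HMG-CoA reductase, INSIG and SREBP proteins, 9 were higher and 1 lower, with a median of only 0.03. Among 11 genes of the COPII coat, which carries SCAP to the Golgi, and its retention, 3 were higher and 8 lower (median -0.02). The 11 lipoprotein receptors and adaptors were higher in 4 cases and lower in 7 (median -0.0025), and the 8 import factors and cofactors of SREBP in 3 and 5 (median -0.0060). No gene of these lists passed an adjusted p under 0.05 in limma.

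The list of 12 sterol carriers and ester hydrolases (5 higher, 7 lower, median -0.0039) held the 1 gene of the 68 in the 6 lists with an unadjusted p under 0.05, a share of 1.47% that lay below the 5.68% of all genes tested. The groups did not overlap for 3 of the 68 in the higher (4.41%) and 3 in the lower direction (4.41%), against 5.35% and 5.28% of all genes, so these counts are no result about the lists. Stard5, a cytosolic sterol-binding protein related to Stard4, had 12548, 12457 and 12882 normalized counts in control and 14257, 13041 and 15078 in Blnc1 LKO livers. It is 1 of the 3 whose Blnc1 LKO livers all lay above the control livers. The log2 fold change was 0.16 (standard error 0.063) with an unadjusted p of 0.0349 and an adjusted p of 0.851 (limma).

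The tissue label was checked against markers. All 6 hepatocyte markers were detected, with a summed level of 4912941 to 5537905 normalized counts in control and 4787667 to 5811801 in Blnc1 LKO livers. The 8 macrophage markers summed to 79792 to 87552 and 83837 to 93179, the 6 endothelial markers to 24532 to 26192 and 23711 to 25313, and the 8 stellate cell markers to 108939 to 120920.0 and 91469.8 to 109045. The 5 cholangiocyte markers summed to 2713 to 4255 and 2907 to 4024, and the 5 lymphocyte markers to 901 to 1288 and 842 to 1206. No marker was at 0 in all 6 livers, and none passed an adjusted p under 0.05 in limma. The stellate sum was lower in the Blnc1 LKO livers save for an overlap of 1 liver, and its part in the values of Soat1 and the other widely expressed genes was not tested.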

How the data were processed

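PolyA-selected RNA of 3 control and 3 Blnc1 LKO mouse livers was sequenced. STAR served the authors for alignment to mm10, HTSeq for counting and DESeq2 for testing (versions are not given in the sources used here). The deposited signal is a gene's read count after division by 1 scaling factor per liver. All values (100%, tolerance 0.01) came out as whole reads, which were recovered for count tests. The labels number the livers without saying that each is a separate mouse, so p-values measure the spread between these samples.

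Groups were compared with limma (version 3.58.1, R 4.3.3) on log2(value + 1), which understates changes of low genes, with Benjamini-Hochberg adjustment. A gene was tested when 3 or more livers reached a value of 1, which 17297 genes did. The study's count test was an alternative because the values were normalized. Alternatives were edgeR (4.0.16), DESeq2 (1.42.0), voom, a pseudocount of 0.1, no filter, at least 10 reads in every liver, a replicate block and leaving out each liver. Levels per kb used GENCODE M21 exons. Values in every liver were given for Srebf2, Scap, Insig1, Insig2, Hmgcs1, Sqle, Soat1, Soat2 and genes at an unadjusted p under 0.05; Mvd, Fdps, Nsdhl and single values of Msmo1 and Npc1 were added after their values were seen, and Srebf1 for its ratio to Srebf2. Genes and lists were chosen with earlier results of these data known. Fits were tested on simulated data. Livers of a group differed beyond counting noise (chi-square per degree of freedom 20.8 to 70.0).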

Additional observations from a re-analysis of the deposited data

How the results depend on the processing

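No alternative called any of the 31 genes at an adjusted p under 0.05, and the smallest adjusted p of any of them was 0.369. Over all genes, limma called 1 gene, against 2 without a filter on low values, 2 with edgeR and TMM, 84 with DESeq2, 0 with the replicate block, and 0 to 13 with 1 liver left out. Leaving out the second Blnc1 LKO liver gave the 13, the first control liver 0, the second control liver 3 and the first Blnc1 LKO liver 2. Deviations of same-numbered livers correlated at -0.0584, -0.0191 and -0.107. With 3 livers per group these values cannot show whether the numbers pair livers, and the labels do not say. The replicate block changed no other call.

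At an unadjusted p under 0.05, 0 of the 31 genes were higher and 0 lower, against 0 to 1 higher and 0 to 2 lower with 1 liver left out. Npc1 passed without the first control liver, Msmo1 without the second and Stard4 without the third Blnc1 LKO liver. Among lower genes, Mvd and Insig1 passed without the third control liver, Insig1 without the first, Npc2 without the second and Soat1 without the third Blnc1 LKO liver. With edgeR and library size only, 1 gene was lower, Insig1.

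Of 434 alternative fold changes, 399 kept their direction and 35 did not, and 16 genes kept it throughout. With all 6 livers no value moved by more than 0.0329, and only Mvk (0.0018, 0.0020, 0.0021 and 0.0045 with edgeR and TMM, edgeR and library size, DESeq2 and voom) and Fdft1 (-0.0020 with edgeR and library size) changed sign. With 1 liver left out, log2 fold changes ran from -0.0523 to 0.0533 for Acat2, -0.16 to 0.0124 for Hmgcs1, -0.10 to 0.0855 for Mvk, -0.0577 to 0.13 for Pmvk, -0.35 to 0.0530 for Mvd, -0.14 to 0.16 for Idi1, -0.21 to 0.16 for Fdps, -0.0125 to 0.0220 for Fdft1, -0.0821 to 0.29 for Sqle, -0.0958 to 0.0287 for Lss, -0.0585 to 0.19 for Cyp51, -0.0158 to 0.21 for Nsdhl, -0.0259 to 0.11 for Hsd17b7, -0.0969 to 0.0469 for Srebf2 and -0.0770 to 0.0640 for Insig2. The median over the 31 genes (0.02) turned to -0.06 without the third control liver, -0.02 without the second and -0.0051 without the third Blnc1 LKO liver. That of the 20 enzymes (0.02) ran from -0.06 to 0.08. Among genes that kept their sign, Ebp ran from 0.0026 to 0.16, Stard4 from 0.0043 to 0.20, Dhcr7 from -0.21 to -0.0051, Npc1 from 0.0653 to 0.26, Msmo1 from 0.0384 to 0.22 and Insig1 from -0.21 to -0.11. How far depth limits each gene was not tested.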
